A study of Aspergillus nidulans with 12 samples.

Results

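The genes described here encode enzymes of glycolysis in Aspergillus nidulans, a filamentous fungus. They were chosen by gene ID, namely hxkA (AN7459), glkA (AN8689), swoM (AN6037), pfkA (AN3223), fbaA (AN2875), tpiA (AN6900), gpdA (AN8041), pgkA (AN1246), acuN (AN5746) and pkiA (AN5210), and all 10 were found among the 7729 genes listed. RNA-Seq libraries were made from mycelium grown in liquid minimal medium, with 3 biological replicates for each of 4 strains. The methods of the study give glucose and nitrate as components of this medium. The mutants kaeA19 and kaeA25 carry alleles of kaeA, the gene for a subunit of the KEOPS complex that modifies tRNA, and wt4 and wt5 are their kaeA+ controls. All 4 strains carry proA6. The strains kaeA25 and wt5 also carry adF9, yA2 and phenA2, while kaeA19 and wt4 carry pabaA and biA markers. For kaeA19 and wt4 the labels give pabaA9 throughout and a biA allele number that differs between libraries (biA1 in wt4, biA2, biA3 and biA4 in kaeA19), whereas the methods of the study give kaeA19 as pabaA12 and biA1. The mutants are described in the study as slow growing.

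The value used for each gene is the authors' mean of normalised fragments over the 6 libraries of a strain pair, kaeA19 with wt4 or kaeA25 with wt5. A normalised fragment is a sequenced read pair assigned to a gene, after division by a factor for the size of its library. Since each mean pools a mutant with its control, it has no replicate error, and nothing here compares a mutant with its control. What is compared is the weight of each gene within a strain pair and the difference between the pairs, which differ in kaeA allele and in markers, and these cannot be told apart. Long transcripts give more fragments than short ones and coding lengths were not used, so ranks between genes are ranks of fragments, not of transcript number.

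Glycolysis splits glucose into pyruvate and yields ATP and NADH. In its first part, ATP is spent to phosphorylate the sugar and cleave it into triose phosphates, and in its second part the triose phosphates are oxidised and ATP is gained. The reversible steps also run backwards in gluconeogenesis, so that fungi growing without sugars still need most of these enzymes. The gpdA promoter is widely used in Aspergillus to drive strong expression of introduced genes.

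All of these genes were among the abundantly sequenced genes of the mycelium. They lay between 9720 fragments for glkA and 131609 for gpdA in the kaeA19/wt4 pair, and between 10358 for glkA and 121310 for gpdA in the kaeA25/wt5 pair. For comparison, the median of all genes with a mean above 0 was 1003 in the first pair and 949 in the second. By fragments, 9 of the members stood in the top 5% of these genes in kaeA19/wt4 and 10 in kaeA25/wt5. Around that limit, which was 10517 and 10124 fragments, glkA lay just outside in the first pair and just inside in the second. Ranked only among genes with a mean of at least 100 in both pairs, 9 members stood in the top 5% in each pair, so this difference in count rested on the genes ranked against. Together the members took 1.68% of the normalised fragments of the 7729 listed genes in kaeA19/wt4 and 1.54% in kaeA25/wt5. Shares of all fragments and ranks among all genes given below likewise cover the listed genes only.

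**Figure D1:**
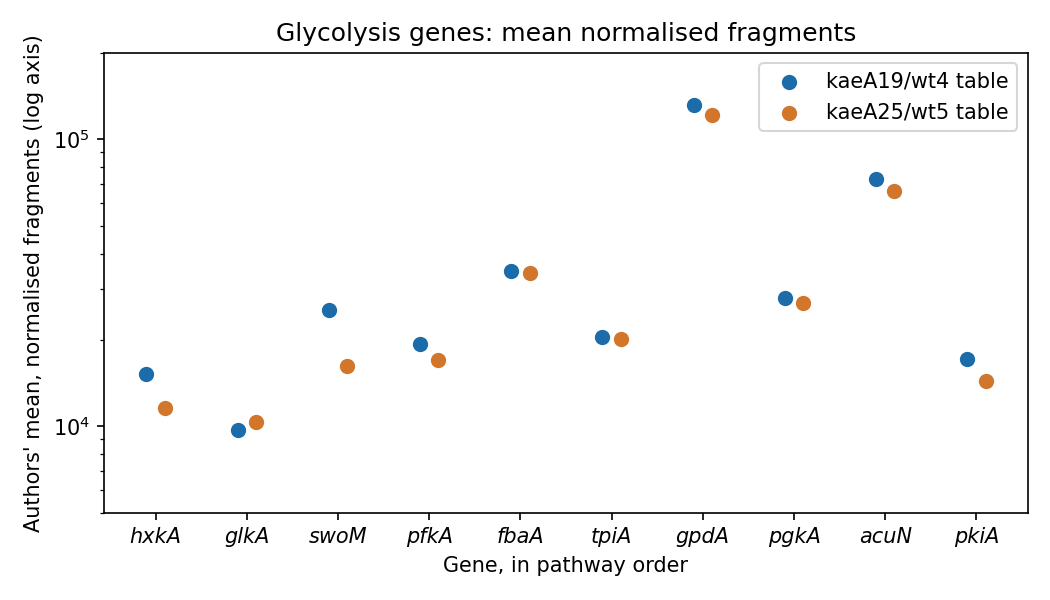
Authors' mean of normalised fragments for each glycolysis gene (log axis, genes in pathway order), 1 point for each strain pair, each pooling 6 libraries. In both pairs gpdA is highest, with acuN next and glkA lowest, and the points of the pairs lie furthest apart for swoM.

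At the first step, hexokinase and glucokinase both transfer phosphate from ATP to glucose. The hexokinase gene hxkA had a mean of 15176 fragments in kaeA19/wt4 and 11614 in kaeA25/wt5. Its counterpart for glucokinase, glkA, had 9720 and 10358. The balance of the pair therefore differed between the strain pairs, with 1.56 hxkA fragments for each of glkA in kaeA19/wt4 and 1.12 in kaeA25/wt5. This ratio within a pair does not depend on how the pairs are scaled to each other. In fragments, hxkA ranked 236th and 309th of all genes, and glkA 412th and 364th.

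The gene swoM encodes glucose-6-phosphate isomerase, which converts glucose 6-phosphate into fructose 6-phosphate. It had 25387 fragments in kaeA19/wt4 and 16280 in kaeA25/wt5. Its rank went from 109th to 204th, and it was the one member whose place among the members moved by more than 1, from 5th to 7th. Phosphofructokinase, encoded by pfkA, commits the sugar to glycolysis. With 19348 fragments in kaeA19/wt4 and 17038 in kaeA25/wt5, pfkA lay below swoM in the first pair and above it in the second. The ratio of swoM to pfkA fragments was 1.31 and 0.955.

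Aldolase, encoded by fbaA, cleaves the phosphorylated sugar into triose phosphates, and triose-phosphate isomerase, encoded by tpiA, interconverts these. The fbaA mean was 34780 fragments in kaeA19/wt4 and 34136 in kaeA25/wt5, rank 3 among the members in both. For tpiA the means were 20485 and 20193. At equal totals these genes had the smallest differences between the pairs of all the members, an order that changed with the scaling, since pgkA differed by less than both with the 10 most abundant genes left out of the totals (-0.015).

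Glyceraldehyde-3-phosphate dehydrogenase, the product of gpdA, carries out the oxidation that yields NADH. Its gene ranked 8th of all genes by fragments in kaeA19/wt4 and 6th in kaeA25/wt5, where only AN5245, AN1236, AN4218, AN4443 and AN4859 had more. It alone took 0.590% and 0.552% of all fragments, which was 35.1% and 35.9% of those of the members. The phosphoglycerate kinase gene pgkA, for the first ATP-yielding step, had 28055 fragments in kaeA19/wt4 and 26868 in kaeA25/wt5. Enolase makes phosphoenolpyruvate, and its gene acuN had 72745 and 66130 fragments, ranking 23rd and 28th of all genes. Pyruvate kinase completes the pathway with a further ATP, and its gene pkiA had 17202 and 14432. No phosphoglycerate mutase gene was included in the set.

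The genes of the second part, from gpdA to pkiA, held 66.7% of the fragments of the members in kaeA19/wt4 and 67.6% in kaeA25/wt5, against 33.3% and 32.4% for the 6 genes from hxkA to tpiA. The order of the members by fragments was gpdA, acuN, fbaA, pgkA, then swoM, tpiA and pfkA, then pkiA, hxkA and glkA in kaeA19/wt4. In kaeA25/wt5 the order was the same apart from swoM, which stood after tpiA and pfkA.

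**Figure D2:**
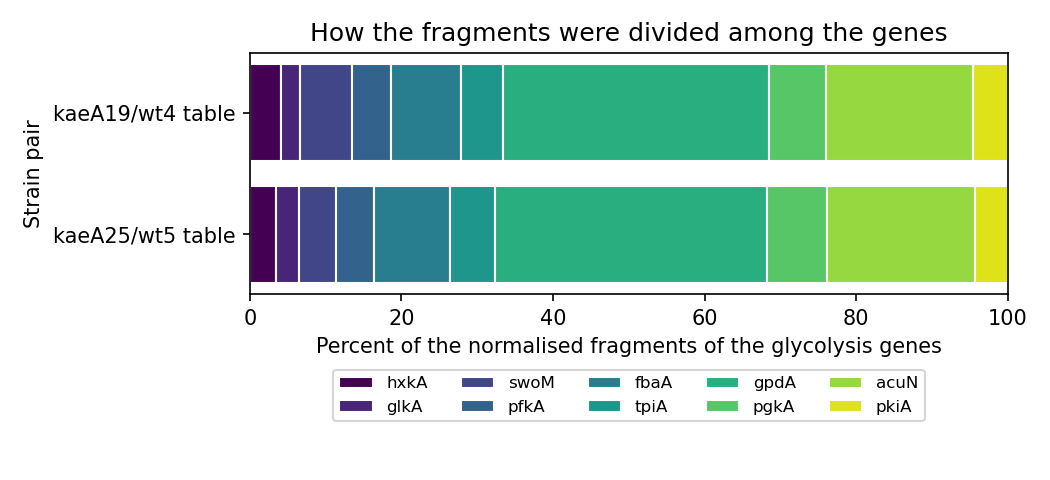
Division of the members' normalised fragments among the genes (percent, segments in pathway order, 1 bar for each strain pair). The gpdA segment holds 35.1% and 35.9%, and the swoM segment is 6.78% in kaeA19/wt4 and 4.81% in kaeA25/wt5.

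To compare the strain pairs, the means were scaled to equal totals and expressed as the log2 of kaeA25/wt5 over kaeA19/wt4. The tables were normalised separately and hold 1 pooled value for each gene, so these differences are descriptions with no test, and a difference in library preparation cannot be told apart from one between the strains. No member differed by more than 2-fold, compared with 9.02% of the 7283 genes with a mean above 0 in both pairs and 2.25% of the 800 genes with a mean of at least 5000 in both. Since all the members are above 5000, the second share is the nearer background, and the count of 0 among 10 members lies close to it. The median of the members was -0.11, with quartiles of -0.22 and -0.02, while all genes had a median of -0.02 and quartiles of -0.24 and 0.19. Of the members, 9 were lower in kaeA25/wt5 and 1 was higher, while 53.1% of all genes and 48.0% of the genes of at least 5000 fragments were lower. For fbaA and tpiA the difference was close to 0 and its sign changed with the scaling.

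The largest difference was that of swoM at -0.62, or 0.651 of its kaeA19/wt4 level per total. Of the genes with at least 5000 fragments in both pairs, 8.12% differed by more in either direction. Next was hxkA at -0.37, exceeded by 22.2% of those genes. The value was -0.23 for pkiA, -0.16 for pfkA, -0.12 for acuN, -0.10 for gpdA and -0.04 for pgkA. Only glkA was higher, at 0.11. Both swoM and hxkA act early in the pathway, but glkA acts at the same step as hxkA. The median was -0.08 for the 6 genes from hxkA to tpiA and -0.11 for the 4 from gpdA to pkiA. The 8 members other than swoM and hxkA lay within 0.25 of 0 on the log2 scale. Set against the sum of the other members, which removes the scaling between the pairs, swoM stood at -0.52, hxkA at -0.25 and glkA at 0.25. On this measure glkA was not the only member above 0. There acuN stood at 0.01, gpdA at 0.04, pgkA at 0.09, and fbaA and tpiA at 0.13. Also below 0 were pfkA at -0.04 and pkiA at -0.11.

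**Figure D3:**
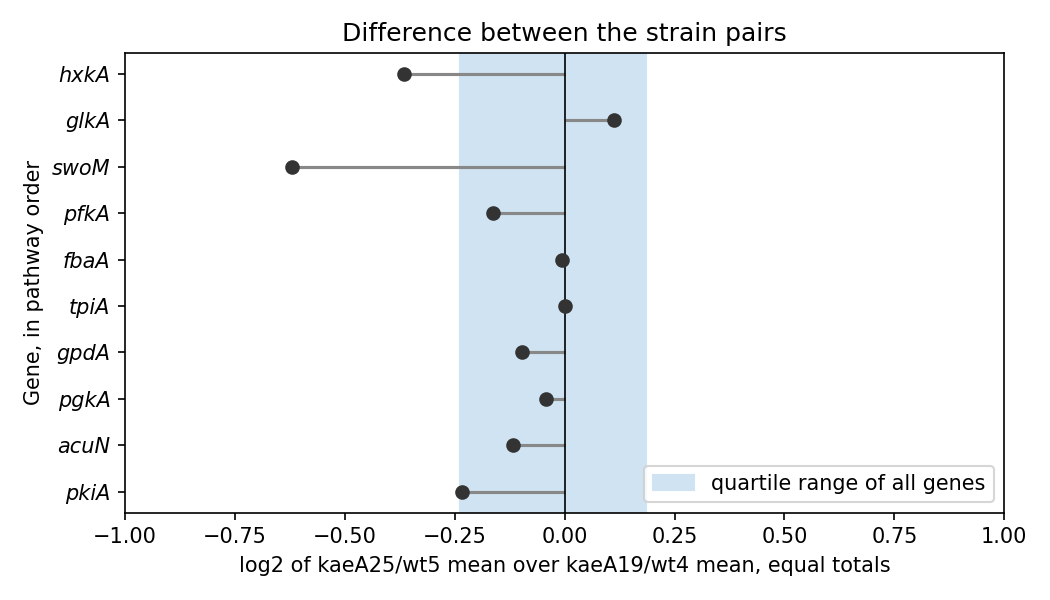
log2 of the kaeA25/wt5 mean over the kaeA19/wt4 mean at equal totals (horizontal axis) for each glycolysis gene in pathway order, with the range between the quartiles of all genes shaded (-0.24 to 0.19). Only swoM at -0.62 and hxkA at -0.37 lie outside the shaded range.

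Genes of neighbouring pathways gave a setting for these values. For gluconeogenesis, the gene acuF (AN1918) for phosphoenolpyruvate carboxykinase had 6198 fragments in kaeA19/wt4 and 10456 in kaeA25/wt5, a log2 difference of 0.78. That of fructose-bisphosphatase, listed as fbp1 (AN5604) in RefSeq, was 0.61, with 1981 and 2977 fragments. Both enzymes bypass irreversible steps of glycolysis and are not shared with it. The pyruvate carboxylase gene pycA (AN4462) stood at -0.25, and 3 further IDs entered for this list, whose role the sources used here do not give, ran from 0.09 to 1.00. The transketolase gene tktA (AN0688) of the pentose phosphate pathway stood at -0.20. The other 2 IDs entered for that pathway, with no role in the sources used here, stood further down at -0.41 and -0.85, the latter a larger difference than that of any glycolysis gene. From the citric acid cycle, cit1, acoA and AN1003 ran from -0.12 to 0.31 and 3 IDs with no role given from -0.21 to 0.10. Of the ethanol genes, aldA (AN0554), for aldehyde dehydrogenase, stood at 0.81. The alcohol dehydrogenase gene alcA (AN8979) had 433 fragments in kaeA19/wt4 and was listed at 0 in kaeA25/wt5. In that pair 181 genes were listed at 0 and the smallest mean above 0 was 11.2. This 0 may therefore not be a measured absence, which was not tested. The 4 remaining IDs of the list from pyruvate to ethanol and acetyl-CoA, with no role given, went the other way from aldA, from -0.27 to -0.05. The actin gene act1 (AN6542), expressed in growing hyphae, had 62071 and 48678 fragments, a log2 difference of -0.33. The other ID entered for hyphal growth, with no role in the sources used here, stood at -0.37. The conidiation regulator genes had few fragments, with 57.3 and 51.8 for abaA (AN0422) and 25.9 and 83.9 for wetA (AN1937). The log2 difference of wetA, 1.72, was larger than that of any other gene of these lists with a ratio, at means of under 100 fragments.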

How the data were processed

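RNA-Seq libraries of kaeA19, wt4, kaeA25 and wt5, 3 of each, were mapped by the authors to the FGSC A4 reference of the Aspergillus Genome Database using TopHat 2 with Bowtie2, and correctly oriented pairs were counted per annotated gene with ShortRead. The strand setting of the counting was not given in the sources used here. Fragments of overlapping or antisense genes may therefore be shared. Per the submitters' processing notes, the tools also included FastQC and edgeR. Each of the 2 deposited tables gives a signal, the authors' mean of size-normalised fragment counts over 6 libraries. Its other columns hold the authors' own comparison of mutant and control (log2 fold change, standard error, statistic, p-value and adjusted p-value), and these were not used. The edgeR test planned for counts per library was not run because no such counts were available, and no mutant was compared with its control.

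Ranks were taken among genes with a mean above 0 (7464 and 7548 genes). The means had no coding lengths to be divided by, so the unscaled means were ranked. The plan for that case was to read no order between genes. The orders of members given here depart from that plan and hold for fragments only. For differences between the pairs, each mean was divided by the total of its table (22310300 and 21992800 fragments over the listed genes), with no pseudocount. The smallest mean above 0 was 11.8 and 11.2, and the depth of each library is unknown. All members were named. Genes ranking above the highest member were named where at most 5, and at most 3 genes of each neighbouring list. Of 22 gene IDs fixed for neighbouring pathways, 9 were named in RefSeq (ASM1142v1) or the study's tables and the 13 others are given as ranges without names, apart from the ID entered for phosphoglycerate mutase, which was left out. The conidiation gene brlA was looked up but was not among the genes listed. RefSeq matched 9 members, and none of these were adjacent genes. The members and lists were chosen with earlier results of these data known. Python 3.11.15, numpy 2.4.6, pandas 2.3.3 and matplotlib 3.10.9 were used. Only the ratio centred on the median was tested, on the kaeA19/wt4 means with known changes put in. The ratio at equal totals was not tested in this way.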

Additional observations from a re-analysis of the deposited data

How the results depend on the processing

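Without gpdA the members took 1.09% of fragments in kaeA19/wt4 and 0.987% in kaeA25/wt5, and with the 10 most abundant genes left out of the totals they took 1.87% and 1.75%. In the top 2% of genes, a limit chosen after the ranks were seen, there were 5 members in each pair. The median log2 difference of the members was -0.13 with the means as deposited, -0.084 centred on the median of all genes, -0.080 with totals lacking the 10 most abundant genes and -0.069 without swoM and hxkA, the last chosen after seeing the data. It kept its direction in each of these. Centring and the totals without abundant genes turned fbaA to 0.016 and 0.020 and tpiA to 0.023 and 0.027, and no other member changed sign. Against genes with a mean of at least 100 in both pairs, the top 5% held 9 members in each pair. The number of members past 2-fold was 0 under every alternative tried. No paired analysis was possible because the means pool all libraries of a pair, and for the same reason no replicate could be left out. The background of genes with at least 5000 fragments was chosen after the members' means were seen.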
